A study of Mus musculus with 8 samples.

Results

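The actin filaments, microtubules and intermediate filaments of mouse liver, and the motor proteins that move along them, were examined by ribosome profiling, which reads the short pieces of mRNA left after nuclease digestion because a ribosome covered them. The genes were chosen by symbol alone, as actins, actin-related proteins, Arp2/3 and capping subunits, myosins, tubulins, keratins, kinesins, dyneins, dynactin subunits, tropomyosins and filamins, with Lima1, Vcl, Tln1, Vim, Cfl1, Pfn1, Ezr and Msn added by name. Of 7500 genes listed, 72 were cytoskeletal by this rule. The libraries came from livers of male wild-type FVB/N mice that were fed, from weaning at 3 weeks of age and for 6 weeks, a Se-deficient diet with no added selenium (0 Se, 0 ppm, 2 mice, 4 libraries) or the same diet with sodium selenite added (0.1 Se, 0.1 ppm, 2 mice, 4 libraries). Each mouse gave 2 libraries.

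The level used here is the average abundance that the authors deposited for each gene, in log2 CPM (the share of a library's counted footprints that fell on the gene, scaled to a fixed total) over all libraries of both diets. It is not given per mouse or per diet, so no value below carries an SD or an n, the depth of each library is unknown, and differences between genes are descriptions with no test. The table's other columns hold the authors' own comparison of the diets and were not used, so no difference between 0 Se and 0.1 Se is given. To compare genes of different length, CPM was divided by the coding length in kilobases, and this quantity is the footprint density. The listed genes summed to 857014 CPM, short of the full scale, and genes known to be abundant in liver, such as Cps1, had no line, so the table does not hold every gene with footprints and a missing line is no measure of expression.

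The cytoskeleton of a hepatocyte is built of actin, tubulin and keratin. Actin filaments underlie the plasma membrane and the bile canaliculus, where myosin II pulls on them, microtubules carry vesicles between the sinusoidal and canalicular surfaces on kinesin and dynein, and keratin filaments give the cell its mechanical resistance. Many of the proteins come as families of close relatives that differ by cell type. Footprint density is a measure of how many ribosomes occupied each stretch of a coding sequence, and thus of synthesis rather than of the amount of protein present.

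The 72 genes had a median log2 CPM of 5.12 and a median density of 26.6 CPM per kilobase, compared with 3.95 and 11.3 over all listed genes. Together they held 0.747% of the CPM of listed genes, whereas Alb, which encodes serum albumin, alone held 10.7%. Among the 72, 47 lay above the median density of the listed genes and 25 below. The range was wide, 2505-fold from Myl6 at 822 CPM per kilobase to Kif21b at 0.328, and 12 genes lay above the 90th percentile of listed genes (135 CPM per kilobase) and 10 below the 10th (1.69). Actb, Myh9, Krt18, Dync1h1 and Myl6 took 11.1%, 8.43%, 7.57%, 5.64% and 5.09% of the CPM of the 72 genes, or 37.8% in all.

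**Figure D1:**
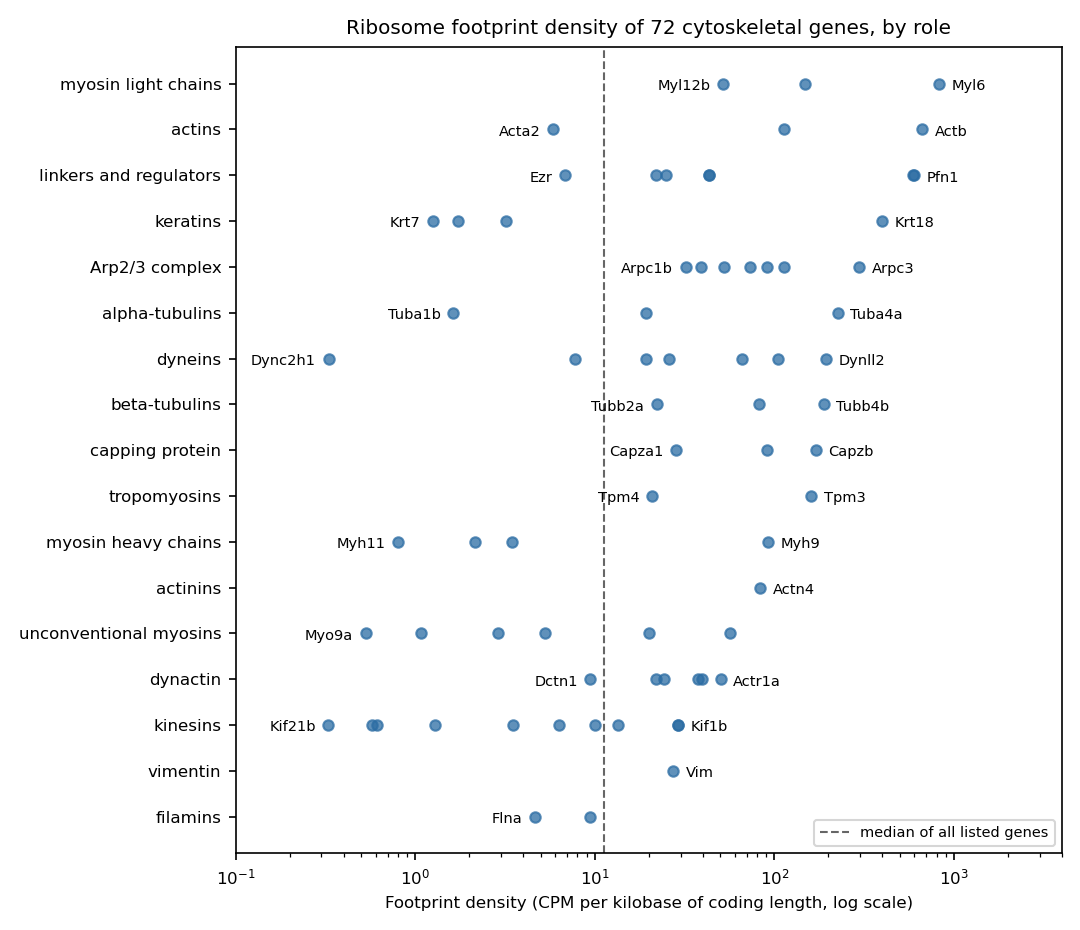
Footprint density (CPM per kilobase of coding length, log scale) of each of the 72 genes, 1 point per gene, in rows by role, with the highest and lowest gene of most rows named. The dashed line is the median of all listed genes, 11.3; within a row the genes can lie far apart, such as Krt18 at 400 against Krt23, Krt19 and Krt7 at 1.26 to 3.18.

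The makeup of the samples was checked first, since several of these genes mark cells other than hepatocytes. The hepatocyte genes were abundant, 9 of 10 having a line, with densities from 194 (Serpina1a) to 83120 (Apoa2) CPM per kilobase. Any reads that Serpina1a shares with relatives such as Serpina1b were not counted, so its value may be too low. Endothelial markers were all listed, 6 of 6, from 4.84 (Lyve1) to 135 (Clec4g), and 5 of 6 Kupffer cell and macrophage markers were listed, from 4.92 (Marco) to 171 (Clec4f). Of 10 stellate and smooth muscle markers 9 were listed, from 0.798 (Myh11) to 208 (Dcn), and of 5 bile duct markers 4 were listed, from 1.26 (Krt7) to 49.1 (Spp1). Only Ptprc, at 3.09, was listed of 5 lymphocyte markers, and 0 of 5 erythroid and 0 of 6 skeletal muscle markers had a line. A further beta-globin, Hbb-bs, listed under its older symbol Beta-s and looked up after the lists were seen, had 4.29, at a log2 CPM of 0.72. The erythroid list is mostly globin genes, and only reads with a unique place were counted. Reads that globins share with each other would be lost, and how many is not given here. The globin lines, missing or low, are thus no measure of erythroid RNA. In such bulk tissue, fewer cells of a type and less RNA per cell cannot be told apart.

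Footprints were counted only where a read had a unique place, so genes with near-identical relatives lose the reads that the relatives share. Coding windows of 30 bases, about the length of a footprint, show how this touches the actins and tubulins. Actb encodes beta-actin and Actg1 gamma-actin, the cytoplasmic actins, and 88.7% of the 1128 bases of the 2 coding sequences are the same. A read from a stretch in which they are identical cannot be assigned to either gene. The pair below is a window with 7 differences (bases 61 to 90 of the coding sequence, counted from the A of the start codon). It tells a read of Actb from a read of Actg1, and matches of this window to other genes are not given. The sequences are those of the GENCODE annotation of NCBIM37 (mm9), 5′ to 3′, and capitals mark bases that differ between the genes.
Actb, bases 61 to 90: ttCgcGggcgacgaTgcTcccCgggcTgtA
Actg1, bases 61 to 90: ttTgcTggcgacgaCgcCcccAgggcCgtG

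The alpha-tubulins show the extreme case. In bases 211 to 240 of the coding sequence, Tuba1b, Tuba1c and Tuba1a are the same, whereas Tuba4a has 10 bases, in capitals, that differ from Tuba1b.
Tuba1b, bases 211 to 240: gaacccacggtcatcgatgaagttcgcacc
Tuba1c, bases 211 to 240: gaacccacggtcatcgatgaagttcgcacc
Tuba1a, bases 211 to 240: gaacccacggtcatcgatgaagttcgcacc
Tuba4a, bases 211 to 240: gaGccTacTgtAatcgatgaGAtCcgAaAT

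Most of the 72 genes had few such windows. The median share of windows that came within 2 mismatches of another place, the tolerance of the study's alignment, was 1.09%, and 51 genes were under 5%. It was over 50% for 6 genes, namely Tuba1b (100%), Tuba1c (97.8%), Myl12b (92.3%), Myl12a (89.5%), Tubb2a (84.2%) and Actb (53.5%). Whether reads from near but not identical windows were discarded depends on alignment settings that are not given. Tuba1b, with every window near another place, still had a log2 CPM of 1.07. Densities of these genes are therefore uncertain. For Tuba1b, Tuba1c and Tubb2a, 90.1%, 92.6% and 65.1% of windows were identical in another gene.

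**Figure D2:**
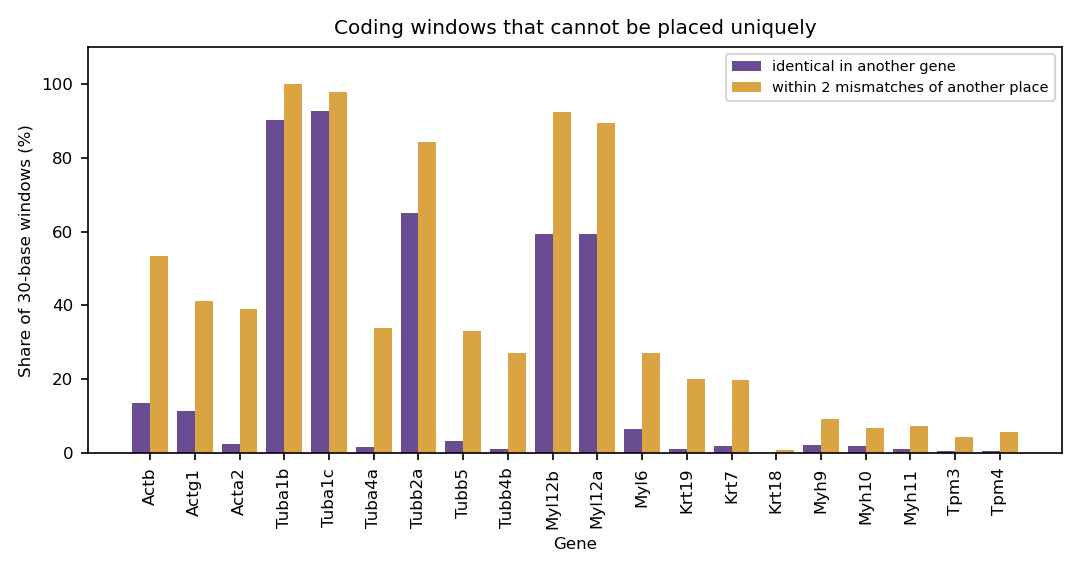
Share of 30-base coding windows (%, vertical axis) of 20 members that are identical in another gene (purple) or lie within 2 mismatches of another place among coding sequences (gold). Almost every window of Tuba1b and Tuba1c lies within 2 mismatches of another place, whereas Krt18 has a gold bar of 0.845%.

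Among the actins, Actb (chromosome 5, 143664794 to 143668433, mm9, minus strand) had a density of 666 CPM per kilobase, Actg1 (chromosome 11, 120207004 to 120209856, minus strand) had 112, and Acta2, the actin of smooth muscle and activated stellate cells, had 5.87. Actb was thus 5.93-fold above Actg1 and 114-fold above Acta2. When only windows with no other place within 2 mismatches were counted as length, the ratios became 7.50 and 149, so that Actb was the highest of the 3 with either length. The other annotated actins covered by the rule had no line.

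Small proteins that govern actin turnover were also among the densest of the 72. Profilin-1 (Pfn1), which supplies actin monomers to growing filaments, had 601 CPM per kilobase, and cofilin-1 (Cfl1), which severs old filaments, had 591. The sums of footprints were lower, 218 CPM for Pfn1 and 260 CPM for Cfl1 against 711 CPM for Actb, because their coding lengths are shorter. The ratio of Actb to Pfn1 depended on the length used, being 1.11 as deposited, 0.994 with a further 54 bases left out and 2.26 with windows that had no other place within 2 mismatches as length. Alpha-actinin-4 (Actn4), a cross-linker of filaments, had 83.2 CPM per kilobase. The filamin Flna, a long cross-linker, was lower, with 4.61. Of the proteins that anchor filaments to the membrane, vinculin (Vcl) had 43.4 CPM per kilobase and moesin (Msn) 43.3. Talin-1 (Tln1) had 22.0 and ezrin (Ezr) 6.85. Msn thus exceeded its relative Ezr 6.33-fold, and another relative, radixin (Rdx), had no line. Lima1, which binds and stabilises actin filaments, had 25.03.

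The Arp2/3 complex nucleates branched actin networks and holds its subunits in equal number. Of 9 genes, 7 had a line, and Actr2 and Arpc1a, a relative of Arpc1b, did not. Densities ran from Arpc3 at 296 CPM per kilobase (chromosome 5, 122841887 to 122856188, plus strand) to Arpc1b at 32.0, a spread of 9.24-fold. Between them were Arpc2 with 114, Arpc5 with 91.5, Arpc4 with 73.0, Actr3 with 52.3 and Arpc5l with 39.2. Arpc5 and Arpc5l are alternatives for the same position, and their sum, 131, was close to Arpc2, the ratio of Arpc2 to it being 0.870. Arpc3 stood 2.60-fold above Arpc2, and no window of either gene came within 2 mismatches of another place.

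Capping protein, a dimer of an alpha and a beta subunit, closes the fast-growing filament end and is also part of dynactin. Its beta subunit Capzb had 170.5 CPM per kilobase, and the alpha subunits Capza2 and Capza1 had 90.5 and 28.5. The alpha subunits summed to 118.9, which was 0.697 of Capzb. Capza2 exceeded Capza1 3.18-fold, and only 2.98% of the windows of either gene came within 2 mismatches of another place.

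**Figure D3:**
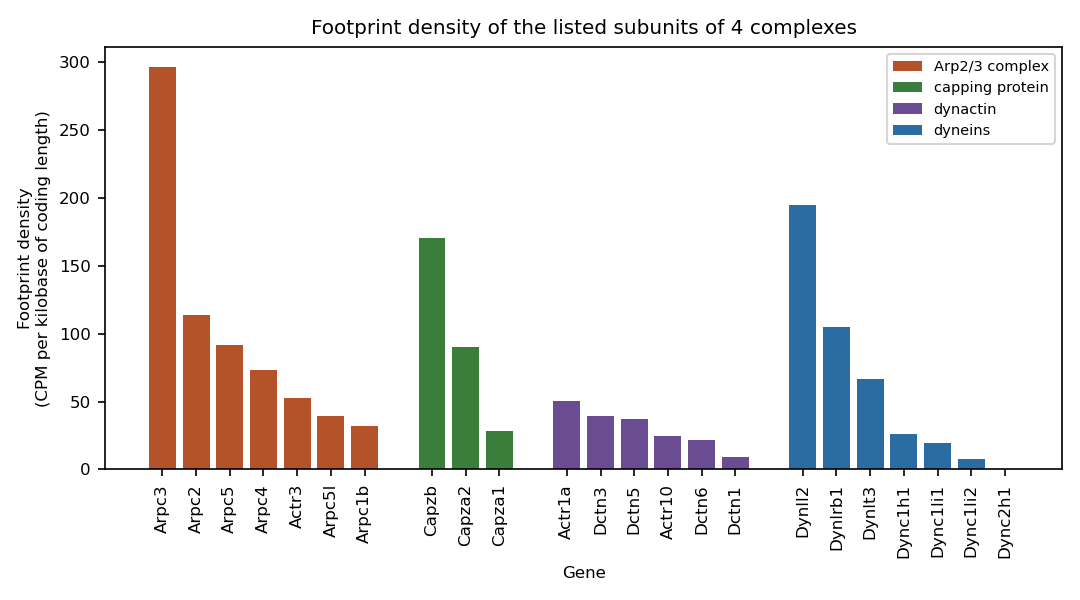
Footprint density (CPM per kilobase, linear scale from 0) of the listed subunits of the Arp2/3 complex, capping protein, dynactin and the dyneins, 1 bar per gene. Arpc3 (296) stands above the other Arp2/3 subunits, and Dynll2 (194.7), Dynlrb1 (105.0) and Dynlt3 (66.4) above the dynein heavy chain Dync1h1 (26.0).

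Myosin II consists of heavy chains with essential and regulatory light chains in equal number, and the prevailing heavy chain can differ between cell types. The non-muscle heavy chain Myh9 (chromosome 15, 77591017 to 77672605, minus strand) had 92.6 CPM per kilobase. The other non-muscle heavy chains were far lower, Myh14 with 3.47 and Myh10 with 2.14, and the smooth muscle chain Myh11 had 0.798. Myh9 was therefore 26.7-fold above Myh14, 43.4-fold above Myh10 and 116-fold above Myh11. No more than 9.34% of the windows of these 4 genes came within 2 mismatches of another place. With the remaining windows as length, Myh9 was 44.6-fold above Myh10.

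The most abundant light chains were denser than Myh9. Myl6, the essential light chain of non-muscle myosin (chromosome 10, 127927916 to 127930931, minus strand), had 822 CPM per kilobase, the highest of the 72 genes with the deposited length and 8.30-fold above the 4 heavy chains together. The regulatory light chains Myl12a and Myl12b had 149 and 52.0. Their sum was 2.03 times that of the heavy chains, but 96.5% of the 519 bases of their coding sequences are the same, and with windows that had no other place within 2 mismatches as length the ratio was 20.5. Myl6 is also a light chain of several unconventional myosins, and 27.2% of its own windows came within 2 mismatches of another place. With windows that had no other place within 2 mismatches as length, Actb was 1.21-fold above Myl6, and Myl6 went from 4.09 times the regulatory light chains to 0.544 of them. The tropomyosins, which coat actin filaments, were represented by Tpm3 with 160 CPM per kilobase and Tpm4 with 20.8, a ratio of 7.71.

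Unconventional myosins work alone or in small numbers, at membranes and on vesicles. Of 25 annotated symbols, 6 had a line. Myo1e, a membrane-bound motor, had 20.1 CPM per kilobase. Myo5b, which carries recycling vesicles to the canalicular surface, had 5.27. Myo9b and Myo9a had 2.88 and 0.530, and Myo1f, known from leukocytes, had 1.08.

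Microtubules are polymers of a dimer of alpha- and beta-tubulin. Among the alpha-tubulins, Tuba4a (chromosome 1, 75211549 to 75215828, minus strand) had 225 CPM per kilobase, Tuba1c 19.3 and Tuba1b 1.63. Among the beta-tubulins, Tubb4b (chromosome 2, 25077680 to 25080222, minus strand) had 188, Tubb5 81.7 and Tubb2a 22.1. The beta-tubulins summed to 292 and the alpha-tubulins to 246, a ratio of 1.19. This order depended on the length used. Divided by the windows found in no other gene, the ratio was 0.666, and Tuba4a went from 11.7-fold above Tuba1c to 0.874 of it. With 2 mismatches allowed it was 0.392 of Tuba1c, and Tuba1b had 0 windows left and could be given no density. The order of Tubb4b over Tubb5 held at 2.30 as deposited and 2.12 with 2 mismatches allowed. Of 7 annotated alpha-tubulin symbols 3 had a line, of 8 beta-tubulin symbols also 3, and of the gamma-tubulins, which nucleate microtubules, none.

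Kinesins carry cargo mainly to the growing microtubule end. Of 38 annotated symbols, 10 had a line, and all 10 were at or below 29.0 CPM per kilobase. The vesicle and organelle motors Kif1b and Kif5b, the latter the heavy chain of conventional kinesin, had 29.0 and 28.9. They were followed by Kif1c with 13.4, Kif21a with 9.96 and Kif3b, a subunit of heterotrimeric kinesin-2, with 6.31. Kif2a, which depolymerises microtubule ends, had 3.48, and Kif13a had 1.29. The mitotic kinesins Kif23 and Kif11, which act in cytokinesis and spindle assembly, had 0.612 and 0.574, and Kif21b had 0.328. Their log2 CPM values, 0.78, 0.83 and 0.66, were close to the lowest of the table, 0.17.

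Cytoplasmic dynein 1 moves in the opposite direction and is made of a pair of heavy chains with intermediate, light intermediate and light chains. Of 14 genes looked up for it, 6 had a line, and none of the intermediate chains did. The heavy chain Dync1h1 (chromosome 12, 111839662 to 111905155, plus strand) had a log2 CPM of 8.50, above 96.0% of listed genes, yet a density of only 26.0 CPM per kilobase because of its 13875 bases. The light intermediate chains Dync1li1 and Dync1li2 had 19.2 and 7.78, and their sum was 1.04 times Dync1h1. The light chains were denser, Dynll2 with 194.7, Dynlrb1 with 105.0 and Dynlt3 with 66.4, so that the highest subunit exceeded the lowest 25.03-fold. Dynll2 also serves proteins other than dynein, among them myosin V. The heavy chain of dynein 2, Dync2h1, the motor of cilia, which hepatocytes lack, had 0.328, which was 79.2-fold below Dync1h1.

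Dynactin links dynein to its cargo. Of 9 genes, 6 had a line, with a spread of 5.32-fold against 25.03-fold for the listed dynein 1 subunits. These spreads are not like for like. The dynactin genes leave out its capping protein subunits, of which Capzb had 170.5 CPM per kilobase. The dynein genes include Dynll2, which also serves other proteins. Actr1a, which forms the filament of the complex and is present in several copies, was the highest of the 6 with 50.2 CPM per kilobase. Dctn3 and Dctn5 had 39.4 and 37.4, Actr10 and Dctn6 had 24.4 and 22.0, and the long arm subunit Dctn1 had 9.43.

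Hepatocytes make a pair of keratins, Krt8 and Krt18, which polymerise with each other, whereas bile duct cells add Krt7 and Krt19. Krt18 (chromosome 15, 101858647 to 101862457, plus strand) had 400 CPM per kilobase, the fifth of the 72 genes. Krt8 had no line, so Krt18 could not be compared with its partner. The bile duct keratins were low, Krt19 with 1.73 and Krt7 with 1.26, which put Krt18 232-fold and 318-fold above them. The log2 CPM values of Krt19 and Krt7, 0.99 and 0.72, were close to the lowest of the table, 0.17. The precision of these ratios is therefore unknown. Krt23 had 3.18, or 126-fold less than Krt18. Vimentin (Vim), the intermediate filament of mesenchymal and endothelial cells, had 27.3, which was 14.7-fold below Krt18. That value lay within the ranges of the endothelial, macrophage, stellate and bile duct markers alike, so it singles out no cell type.

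Longer coding sequences had lower densities among the 72 genes (Spearman's rho of -0.651 across genes) and over all listed genes (-0.451), as a description across genes, which are not independent replicates. The lowest log2 CPM of the table, 0.17, sets a lower edge of density that falls with length by construction, and genes under it have no line, so these correlations hold that edge as well. The 21 cytoskeletal genes under 1000 bases had a median density of 91.5 CPM per kilobase, and the 23 over 3000 bases had 5.27. Among all listed genes the medians were 25.6 and 3.65 for the same classes. Light chains are short and heavy chains long, and the part of length in the differences between them was not tested.

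**Figure D4:**
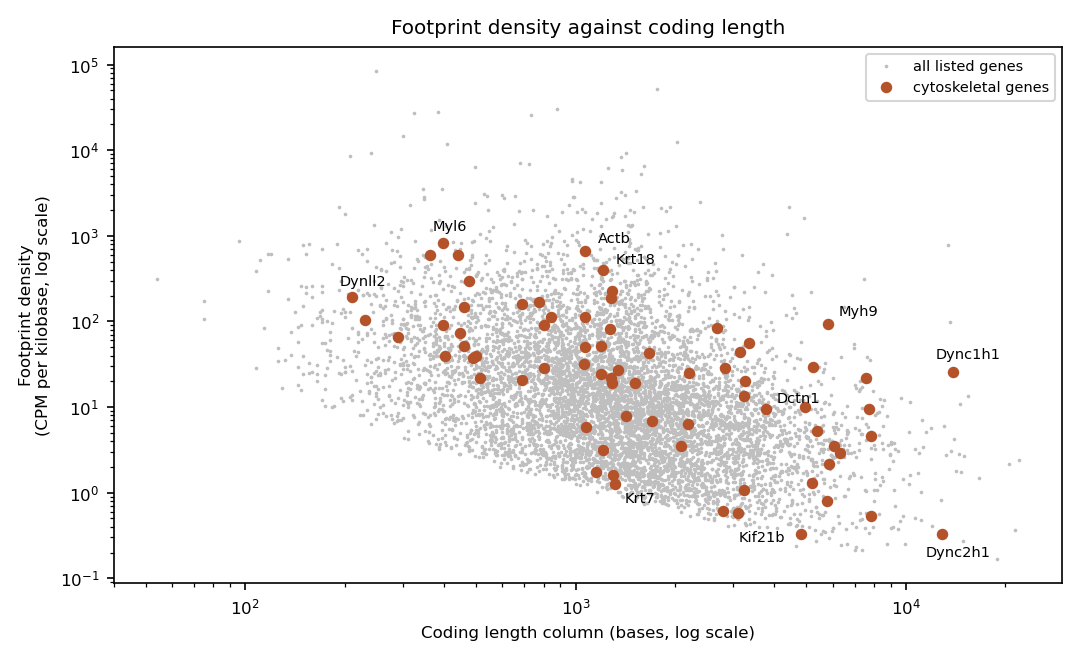
Footprint density (CPM per kilobase, log scale) against the deposited coding length (bases, log scale) for all listed genes (grey) and the 72 cytoskeletal genes (orange). Density falls with length in both, and Myh9 (92.6) and Dync1h1 (26.0) lie above 3.65, the median of listed genes over 3000 bases.

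Other genes of the cytoskeleton, from a list of 53 that the rule does not hold, had a line in 35 cases, with a median of 37.4 CPM per kilobase and a range from Bicd2 at 3.68 to Cdc42 at 308. The chaperonin, which folds actin and tubulin, had 6 of 8 subunits listed, and these lay within 1.72-fold of each other, from 89.5 (Tcp1) to 154 (Cct8). For prefoldin, which hands unfolded actin and tubulin to it, 4 of its genes were looked up, and Pfdn1 had 132 and Pfdn5 139. The spread of 1.72-fold within the chaperonin compares with 9.24-fold within the listed Arp2/3 subunits. The latter counts Arpc5 and Arpc5l, alternatives for the same position, and Arpc1b without its relative Arpc1a. The Arp2/3 genes also differ in coding length, from 396 bases (Arpc5) to 1197 (Actr3). The spreads are therefore not like for like, and the part of length in them was not tested. The tubulin cofactors ran from 6.84 (Tbcd) to 180 (Tbca), and the nuclear lamins Lmna, Lmnb2 and Lmnb1 had 36.9, 10.2 and 4.37. The actin monomer-binding thymosins Tmsb4x and Tmsb10 had 175 and 107, and the small GTPases Cdc42 and Rac1, which direct actin assembly, had 308 and 154.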

How the data were processed

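Liver ribosome footprints of 8 libraries from 4 mice were processed by the authors. The study's methods state that they trimmed adapters, discarded rRNA reads with Bowtie, and kept footprints with a unique place, allowing 2 mismatches, on the coding part of the longest RefSeq isoform of each mRNA (mm9), without the first 15 and last 3 codons. Genes above 1 CPM in at least 3 samples entered their comparison. Bowtie's version: not given in the sources used here. For each gene, the log2 CPM deposited by the authors is 1 average over all libraries, and the coding length beside it is in bases. The log2 fold change, fold change, p-value and FDR columns deposited by the authors hold their own comparison of the diets and were not used.

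Members and lists were chosen with earlier results of these data known. List genes were looked up by symbol and by RefSeq synonym. Density was 2 to the power of log2 CPM, divided by the deposited length in kilobases. That length equalled the annotated coding sequence less 60 bases, or 20 codons, for 70 of 72 members and for 97.7% of the 7414 genes matched to GENCODE vM1 on NCBIM37. Every window of 30 bases was compared with 20236 coding sequences, exactly in Python 3.11.15 and with bwa 0.7.19 for 2 mismatches. The exact comparison was tested on simulated data, and the comparison with 2 mismatches was not. Alternatives changed the length, the windows counted or the lowest log2 CPM. The genes to be named with values were the 20 of highest density, the ends of each role group, all listed subunits of the complexes, and all actins, tubulins, keratins and non-muscle myosins, and the other members were added to complete their groups. A few items that this rule names are not reported here.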

Additional observations from a re-analysis of the deposited data

How the results depend on the processing

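No value here has a replicate error, so a change is given as a value. The alternatives were the coding length less a further 54 bases and windows found in no other gene, both planned, and the full coding length and windows with no other place within 2 mismatches, both chosen after seeing the data. In that order, the median density of the members, 26.6 CPM per kilobase as reported, became 27.3, 29.2, 26.0 and 29.6. The median member's percentile among listed genes, 69.0 as reported, became 68.1, 69.3 and 70.0 with the first 3, and 64.0 once genes below a log2 CPM of 3 were left out. The share of CPM went from 0.747% to 0.749% with that filter. The spread within the Arp2/3 complex, 9.24-fold, became 9.89, 9.57, 8.68 and 9.36. For dynein 1, 25.03-fold became 32.4, 28.4, 20.3 and 28.8, and for dynactin, 5.32-fold became 5.53, 5.43, 5.12 and 5.72. The window settings also shorten the length by themselves, most for short genes, since a gene has fewer 30-base windows than bases. Dynll2, of 210 bases, had 181 windows, all found in no other gene.

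The beta- to alpha-tubulin ratio, 1.19, turned to 0.666 with windows found in no other gene, and Tuba4a over Tuba1c, 11.7, turned to 0.874 and, with 2 mismatches, to 0.392. Tuba1b and Tuba1c keep few windows. Other orders turned too. With 2 mismatches, Myl6 over the regulatory light chains went from 4.09 to 0.544 and Actb over Myl6 from 0.810 to 1.21. With a further 54 bases left out, Actb over Pfn1 went from 1.11 to 0.994 and Kif1b over Kif5b from 1.002 to 0.993. With the full length, the light intermediate chains over Dync1h1 went from 1.04 to 0.999. Tubb4b over Tubb2a, 8.50, fell to 1.84 with 2 mismatches. Since the column already leaves out 60 bases, the 54-base alternative trims the ends a second time. The Krt8 to Krt18 ratio was not run because Krt8 has no line, and the 2 members of another coding length in the annotation, Cfl1 among them, have no window-based value. No paired analysis was possible because the deposited abundance is not split by mouse or diet, and leaving out a mouse was not possible for the same reason. Depth is unknown, so the precision of the lowest densities cannot be given.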
